A study of Mus musculus with 4 samples.

Results

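The core circadian clock genes are the transcription factors, repressors and output gene that keep daily time in nearly every mammalian cell. The set was chosen by name and holds Arntl (also called Bmal1), Clock, Per1, Per2, Per3, Cry1, Cry2, Nr1d1, Nr1d2 and Dbp. All 10 of these genes had a value in every library, out of 13677 Ensembl genes in all, and no filter on low values was applied. They were compared in mouse inguinal white fat, which lies under the skin of the groin, between 2 libraries labelled FLCNKO and 2 libraries labelled WT (wildtype). By the series text the FLCNKO animals lack Flcn in adipose tissue; this gene encodes folliculin, a tumour suppressor that acts on mTOR signalling. The labels used here give neither the driver of the deletion, nor strain, age or sex, nor the hour of tissue collection, and they do not tie a library to a single animal. P-values therefore measure only the spread between these libraries.

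In the clock, the proteins of Arntl and Clock pair up and switch on genes that carry an E-box in their regulatory DNA. Those genes include the Per and Cry repressors, which shut their own activators down, the receptors Nr1d1 and Nr1d2, which repress Arntl and Clock through RRE sites, and Dbp, an output factor. Over a day in peripheral tissues the E-box genes and Arntl are therefore high at opposite times, Nr1d1 and Dbp peak before the Per genes, and Cry1, which answers to E-box and RRE sites alike, peaks late. Fat cells use this clock to time the release and storage of lipid.

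Promoter sequences are shown for the 3 members with the smallest p-values, Per1, Nr1d1 and Per3, and for Arntl and Cry1, which lie on or near the opposite side of the cycle. They are RefSeq windows of build GRCm38.p6, 250 bases before to 50 bases after a transcription start, and 9 of the 10 members had at least 1 such window. The windows printed are chr11:69098699-69098998 and chr11:69099902-69100201 on the plus strand for Per1, chr11:98775328-98775627 on the minus strand for Nr1d1, chr4:151044616-151044915 on the minus strand for Per3, chr7:113207261-113207560 on the plus strand for Arntl, and chr10:85185005-85185304 on the minus strand for Cry1. Each is written 5′ to 3′ on the strand of its gene, and capitals mark every match on either strand to 1 of 5 short motifs. These were the E-box (CACGTG), the E-prime box (CACGTT), the D-box (TTANGTAA, bound by Dbp and its relatives), the RRE core (AGGTCA) and the core of the cAMP response element (TGACGT).
Per1, first window: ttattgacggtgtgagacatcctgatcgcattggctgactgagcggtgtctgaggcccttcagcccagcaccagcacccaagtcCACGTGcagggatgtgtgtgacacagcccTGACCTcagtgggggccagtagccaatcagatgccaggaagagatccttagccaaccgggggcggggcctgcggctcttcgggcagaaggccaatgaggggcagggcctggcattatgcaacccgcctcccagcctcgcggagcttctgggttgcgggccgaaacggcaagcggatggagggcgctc
Per1, second window: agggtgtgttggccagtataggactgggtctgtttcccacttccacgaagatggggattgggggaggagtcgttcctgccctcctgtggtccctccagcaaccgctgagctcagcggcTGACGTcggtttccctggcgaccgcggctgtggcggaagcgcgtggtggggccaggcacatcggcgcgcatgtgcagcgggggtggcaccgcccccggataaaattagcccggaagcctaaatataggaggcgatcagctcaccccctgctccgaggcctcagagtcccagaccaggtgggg
Nr1d1: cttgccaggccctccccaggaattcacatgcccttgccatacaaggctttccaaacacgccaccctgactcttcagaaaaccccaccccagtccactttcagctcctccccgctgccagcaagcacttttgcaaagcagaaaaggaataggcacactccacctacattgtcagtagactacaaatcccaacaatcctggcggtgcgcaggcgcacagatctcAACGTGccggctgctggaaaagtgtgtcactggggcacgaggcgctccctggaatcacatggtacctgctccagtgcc
Per3: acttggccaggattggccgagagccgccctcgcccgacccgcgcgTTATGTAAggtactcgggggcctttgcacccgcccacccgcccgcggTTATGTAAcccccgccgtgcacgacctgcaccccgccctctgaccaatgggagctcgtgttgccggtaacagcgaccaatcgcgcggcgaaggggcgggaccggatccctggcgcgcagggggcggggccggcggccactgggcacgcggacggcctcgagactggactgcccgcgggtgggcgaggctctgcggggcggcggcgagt
Arntl: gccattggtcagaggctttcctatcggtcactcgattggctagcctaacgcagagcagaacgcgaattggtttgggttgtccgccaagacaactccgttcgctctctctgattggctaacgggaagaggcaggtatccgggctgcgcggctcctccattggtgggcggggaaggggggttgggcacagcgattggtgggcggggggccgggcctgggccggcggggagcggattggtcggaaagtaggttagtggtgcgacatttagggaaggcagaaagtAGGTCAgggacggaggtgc
Cry1: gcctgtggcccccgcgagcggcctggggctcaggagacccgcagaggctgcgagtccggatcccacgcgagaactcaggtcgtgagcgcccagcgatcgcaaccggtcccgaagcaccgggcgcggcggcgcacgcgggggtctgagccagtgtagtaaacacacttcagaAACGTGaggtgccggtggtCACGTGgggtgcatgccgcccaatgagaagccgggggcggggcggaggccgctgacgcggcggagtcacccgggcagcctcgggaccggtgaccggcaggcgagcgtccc
The 2 Per1 windows differed in what they held. The first carried an E-box and an RRE core, and the second a core of the cAMP response element. Per3 had 2 D-boxes, Nr1d1 an E-prime box 28 bases before its start, and Cry1 an E-box and an E-prime box. The Arntl window printed had an RRE core 31 bases after its start. A further Arntl window, chr7:113207215-113207514, held no match and is not printed. No matches overlapped. Of all 27025 genes with windows of this length, 8.09% held an E-box in at least 1 window, 5.44% an E-prime box, 2.72% a D-box, 18.1% an RRE core and 8.37% a core of the cAMP response element. Among the 9 members searched, 2 had an E-box, 3 an E-prime box, 1 a D-box, 4 an RRE core and 1 a core of the cAMP response element. Per2 had no window. Per3, Nr1d2 and Dbp, counted below as E-box genes, held neither an E-box nor an E-prime box in their windows, and Cry1 held no RRE core. A match is only a run of letters and does not show that a factor bound there.

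The values are log2 expression levels as deposited, already brought to nearly equal distributions in the 4 libraries, with library medians of 10.76. The sequencing depth is unknown, so no counting interval can be given. Flcn itself was 12.35 and 12.12 in the FLCNKO libraries, against 12.36 and 12.21 in WT, so its gene-level value did not separate the groups, and the groups are called by their labels throughout. All 8 adipocyte markers were detected, at a summed level (log2) of 21.54 and 21.67 in FLCNKO and 21.54 and 21.53 in WT. By sign, 6 of the 8 were lower in FLCNKO, among them Adipoq (-0.46 ± 0.16, limma adjusted p = 0.185) and Retn (-0.44 ± 0.16, adjusted p = 0.198). The 2 with a positive difference were Fabp4 (0.15 ± 0.24, limma adjusted p = 0.762) and Lpl (0.24 ± 0.25, adjusted p = 0.634). These had the highest levels of the 8 and make up most of the sums. Markers of other cells were not even. All 10 skeletal muscle markers were detected, with summed levels of 15.93 and 13.37 in FLCNKO and 17.06 and 14.08 in WT, and replicate 2 of each group was the lower. The sum in FLCNKO replicate 2 was nearly all Acta1 (13.32), and the medians of the 10 muscle markers were 12.33 and 5.32 in FLCNKO and 13.18 and 10.55 in WT. Macrophage markers summed to 16.29 and 15.97 in FLCNKO and 17.11 and 16.91 in WT, and fibroblast markers to 18.97 and 18.82 against 20.00 and 19.86. At a limma adjusted p under 0.05, 2 of 8 macrophage and 3 of 7 fibroblast markers were called lower in FLCNKO and 0 higher. Of all genes 0.614% were called lower. The 6 brown and beige adipocyte markers summed to 17.56 and 16.21 in FLCNKO and 14.11 and 13.35 in WT. Endothelial markers summed to 14.60 and 14.97 in FLCNKO and 14.81 and 14.75 in WT, lymphocyte markers to 10.62 and 8.97 against 12.55 and 10.57, and the 2 epithelial markers measured of 5 to 7.84 and 8.49 against 8.21 and 8.67. In bulk tissue, fewer cells of a type and less RNA per cell cannot be told apart.

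No core clock gene passed the test between FLCNKO and WT. The comparison used limma across all 13677 genes with Benjamini-Hochberg adjustment at 0.05, and it called 1.59% of all genes (0.98% as higher and 0.614% as lower) but 0 of the 10 members, whose smallest adjusted p was 0.0816, for Per1. At an unadjusted p under 0.05, limma gave 3 members, Per1, Per3 and Nr1d1, each lower in FLCNKO, where 22.4% of all genes passed in either direction, 12.1% as higher and 10.3% as lower. By sign, 7 members were lower and 3 higher in FLCNKO, with a median log2 fold change of -0.26, against a median of 0.00 over all genes. The 3 with a positive difference were Arntl, Clock and Cry1, and the 7 with a negative one were the genes counted as the E-box arm. Cry1 is an E-box target too, but it also answers to RRE sites and was counted in neither arm. The libraries of the groups did not overlap for 6 of the 10 members, against 54.6% of all genes.

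**Figure D1:**
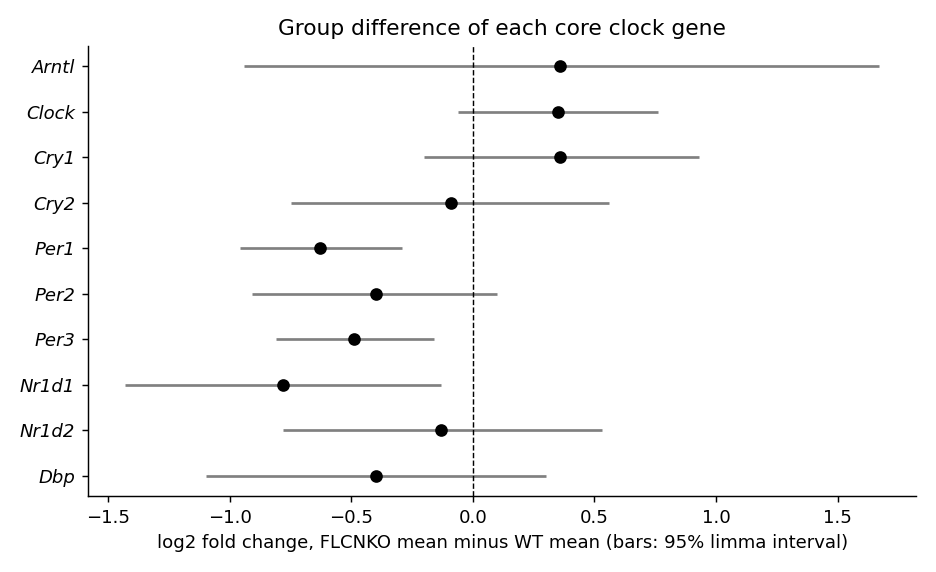
Log2 fold change (FLCNKO mean minus WT mean) of each core clock gene, with bars for the 95% limma interval (n = 2 per group). The intervals of Per1, Per3 and Nr1d1 lie below 0 before adjustment over all genes, and those of the other 7 genes include 0.

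Of the activators, Arntl encodes the partner without which the clock stops. Its deposited log2 value was 7.00 and 8.25 in the FLCNKO libraries and 7.04 and 7.49 in WT. FLCNKO replicate 2 was the highest and FLCNKO replicate 1 the lowest of the 4, so the groups overlapped. The log2 fold change was 0.36 ± 0.51 (SE; 95% interval from -0.94 to 1.67; limma adjusted p = 0.724), and it was -0.26 without FLCNKO replicate 2. Arntl values are also coarse, since 47 other genes had exactly the same value in FLCNKO replicate 1 and between 23 and 25 in each of the other libraries. Clock, the histone-modifying partner of Arntl, was 12.27 and 12.66 in FLCNKO, against 12.08 and 12.16 in WT. Both FLCNKO libraries lay above both WT libraries, but the difference of 0.35 ± 0.16 did not pass (limma adjusted p = 0.278), and it was 0.16 without FLCNKO replicate 2 and 0.55 without FLCNKO replicate 1.

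Among the Period repressors, Per1, which also responds quickly to glucocorticoids and cAMP, showed the largest difference. It had log2 values of 12.86 and 13.13 in FLCNKO and 13.60 and 13.65 in WT, without overlap. The means were 13.00 ± 0.19 in FLCNKO and 13.62 ± 0.04 in WT (SD, n = 2 each), a log2 fold change of -0.63 ± 0.13 (SE; 95% interval from -0.96 to -0.29), or 1.54-fold lower in FLCNKO (limma adjusted p = 0.0816). Per3, the Period gene least needed for rhythm itself, was 13.46 and 13.49 in FLCNKO, against 13.84 and 14.09 in WT. Here the FLCNKO libraries were nearly equal to each other, and the difference was -0.49 ± 0.13 (limma adjusted p = 0.113). Per2, a repressor that also follows temperature and feeding signals, was 12.38 and 12.91 in FLCNKO and 13.13 and 12.97 in WT. The groups did not overlap, yet FLCNKO replicate 2 lay close to WT replicate 2, and the difference of -0.40 ± 0.20 did not pass (limma adjusted p = 0.305). Without FLCNKO replicate 1 it was -0.14, and without FLCNKO replicate 2 it was -0.66.

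The Cryptochrome repressors had opposite signs. Cry1, the stronger and later repressor, was 10.37 and 10.96 in FLCNKO and 10.33 and 10.27 in WT. Only FLCNKO replicate 2 stood clear of the WT libraries, and the log2 fold change of 0.36 ± 0.22 (limma adjusted p = 0.401) was 0.07 without it and 0.66 without FLCNKO replicate 1. Cry2 was 12.20 and 12.84 in FLCNKO and 12.42 and 12.82 in WT, with replicate 2 above replicate 1 in either group. Its difference of -0.09 ± 0.26 had an interval from -0.75 to 0.56 (limma adjusted p = 0.863), and it was 0.23 without FLCNKO replicate 1 and 0.11 without WT replicate 2.

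Of the nuclear receptors, Nr1d1 (REV-ERB alpha), the haem-binding repressor of Arntl, had the largest negative difference of the set. Its log2 values were 12.42 and 11.86 in FLCNKO and 12.68 and 13.17 in WT, without overlap and with FLCNKO replicate 2 the lowest. The log2 fold change was -0.78 ± 0.26 (95% interval from -1.43 to -0.13), 1.72-fold lower in FLCNKO, and did not pass (limma adjusted p = 0.168). With single libraries left out it lay between -1.06 (without FLCNKO replicate 1) and -0.50 (without FLCNKO replicate 2). Nr1d2 (REV-ERB beta), its paralog, was 14.03 and 13.28 in FLCNKO and 13.76 and 13.80 in WT. The FLCNKO libraries were here the highest and the lowest of the 4, so the difference of -0.13 ± 0.26 (limma adjusted p = 0.816) was 0.25 without FLCNKO replicate 2 and -0.50 without FLCNKO replicate 1. Dbp, the D-box-binding output factor, was 12.92 and 12.34 in FLCNKO and 12.75 and 13.31 in WT. The groups overlapped, and the log2 fold change was -0.40 ± 0.27 (95% interval from -1.10 to 0.30; limma adjusted p = 0.451), -0.11 without FLCNKO replicate 2 and -0.12 without WT replicate 2.

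**Figure D2:**
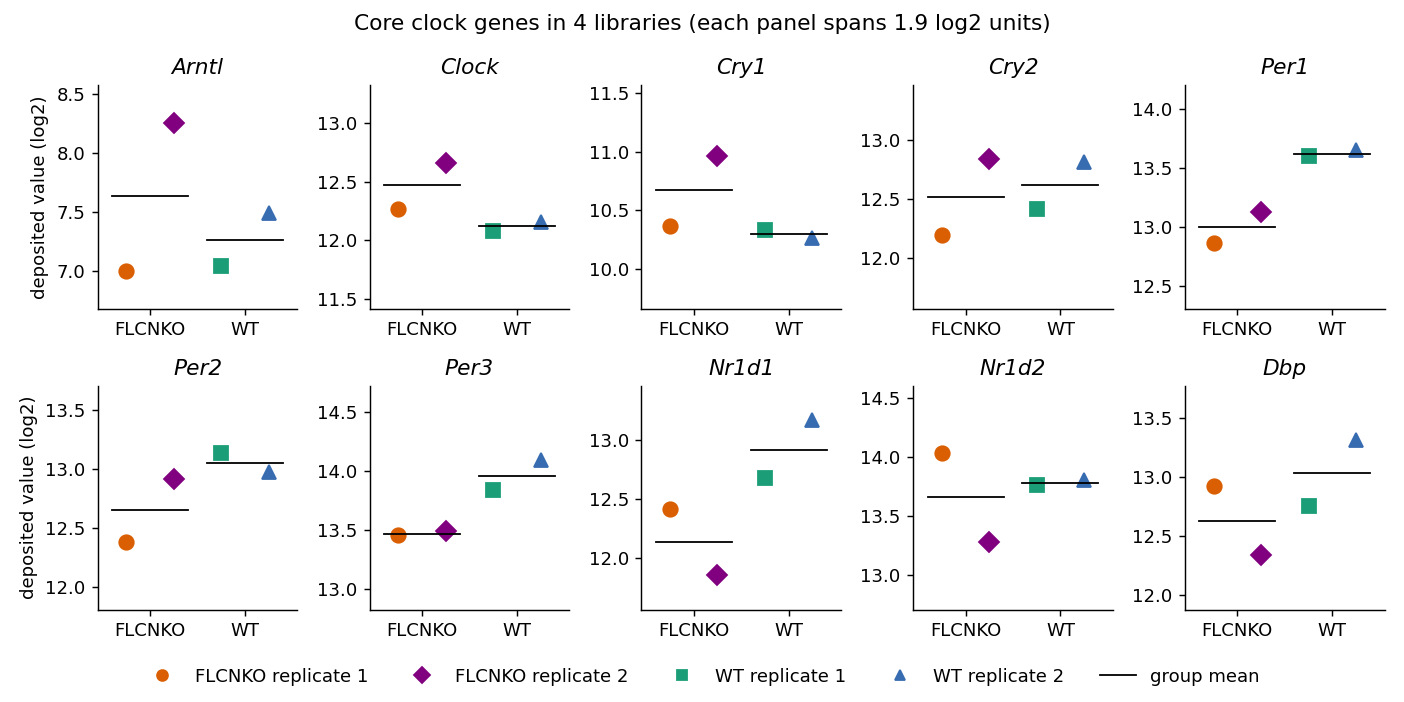
Deposited log2 value of each core clock gene in the 2 FLCNKO and 2 WT libraries, 1 panel per gene, with a line at each group mean. FLCNKO replicate 2 (diamonds) is highest for Arntl, Clock, Cry1 and, narrowly, Cry2, and lowest for Nr1d1, Nr1d2 and Dbp.

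Some of these genes share exons with a gene on the other strand, and the strand setting of the counting is not given in the sources used here. In the GENCODE M21 annotation Nr1d1 shares 8.55% of its exon bases with Thra, the thyroid hormone receptor alpha gene, and Dbp shares 18.0% with Sphk2, a sphingosine kinase gene. Thra was 12.34 and 12.49 in FLCNKO, against 12.86 and 12.76 in WT (log2 fold change -0.39 ± 0.11, limma adjusted p = 0.135). Sphk2 was 10.24 and 10.96 in FLCNKO and 10.82 and 10.50 in WT. Cry2 shares 4.67% of its exon bases with an opposite-strand transcript, and 9.51% of the stretches of 31 bases in Nr1d2 transcripts also occur in transcripts of other genes. Part of the reads of these 4 genes could therefore belong to a neighbour or copy.

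The libraries of a group differed from each other in the clock genes, chiefly under the FLCNKO label. The absolute log2 difference between FLCNKO replicates 2 and 1 had a median of 0.576 over the 10 members, against 0.247 over all genes. For the WT replicates the same medians were 0.209 and 0.147. Between FLCNKO replicate 1 and WT replicate 1 the member median was 0.234, against 0.307 over all genes, so in these genes FLCNKO replicate 1 lay nearer to WT replicate 1 than to the other FLCNKO library. In FLCNKO replicate 2, Arntl was 1.26 higher than in FLCNKO replicate 1, Cry2 0.64, Cry1 0.59, Per2 0.52, Clock 0.39 and Per1 0.27 higher. Nr1d2 was lower in it by 0.75, Dbp by 0.59 and Nr1d1 by 0.56, and Per3 differed by 0.03. Between the WT replicates the pattern was another, with Dbp 0.56, Nr1d1 0.49, Arntl 0.45 and Cry2 0.40 higher in replicate 2 and Clock, Per1, Cry1 and Nr1d2 within 0.08 of each other. The group difference was larger than both replicate gaps for 3 members, Per1, Per3 and Nr1d1. These are the same 3 that limma gave at an unadjusted p under 0.05, from the same values. Of all genes, 18.8% had a larger absolute log2 fold change than Per1, 26.6% than Per3 and 12.9% than Nr1d1. The share of all genes whose group difference is larger than both replicate gaps was not computed.

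**Figure D3:**
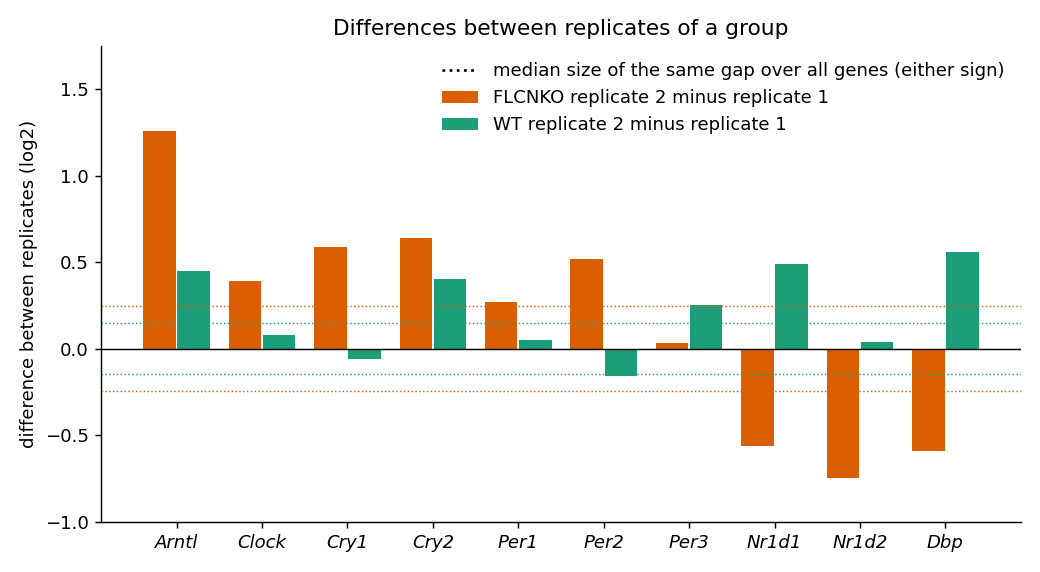
Difference between replicate 2 and replicate 1 (log2) of each core clock gene within FLCNKO and within WT, with dotted lines at the median size of the same gap over all genes. Arntl, Clock, Cry1, Cry2, Per1, Per2 and, near 0, Per3 have positive FLCNKO bars and Nr1d1, Nr1d2 and Dbp negative ones, and for Nr1d1 and Dbp the WT bar points the other way.

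To set the opposed arms of the clock side by side, 7 E-box genes (Per1, Per2, Per3, Cry2, Nr1d1, Nr1d2 and Dbp) were compared with Arntl and Clock. Each value was taken as a deviation from the gene's own mean over the 4 libraries. Cry1, which answers to E-box and RRE sites alike, was left out of the contrast. The E-box arm deviated by -0.18 and -0.24 in the FLCNKO libraries and by 0.09 and 0.33 in WT. Arntl and Clock deviated by -0.23 and 0.59 in FLCNKO and by -0.31 and -0.04 in WT. The contrast, E-box arm minus Arntl and Clock, was 0.06 and -0.83 in FLCNKO and 0.40 and 0.37 in WT. It was thus lower in each FLCNKO library than in either WT library, with FLCNKO replicate 2 far below the other 3. Means were -0.39 ± 0.63 in FLCNKO and 0.39 ± 0.02 in WT (SD, n = 2 each), a difference of -0.77, which was -1.22 without FLCNKO replicate 1 and -0.33 without FLCNKO replicate 2. No test was made, since the genes were chosen with earlier results of these data known, and an exact permutation test of 2 libraries against 2 cannot give a two-sided p below 0.333. In a variant added after the data were seen, the difference without Arntl, the coarsest gene, was also -0.77. That holds for the group difference only, and the contrast of each library without Arntl was not computed. From FLCNKO replicate 1 to FLCNKO replicate 2, Arntl rose by 1.26 and Clock by 0.39.

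**Figure D4:**
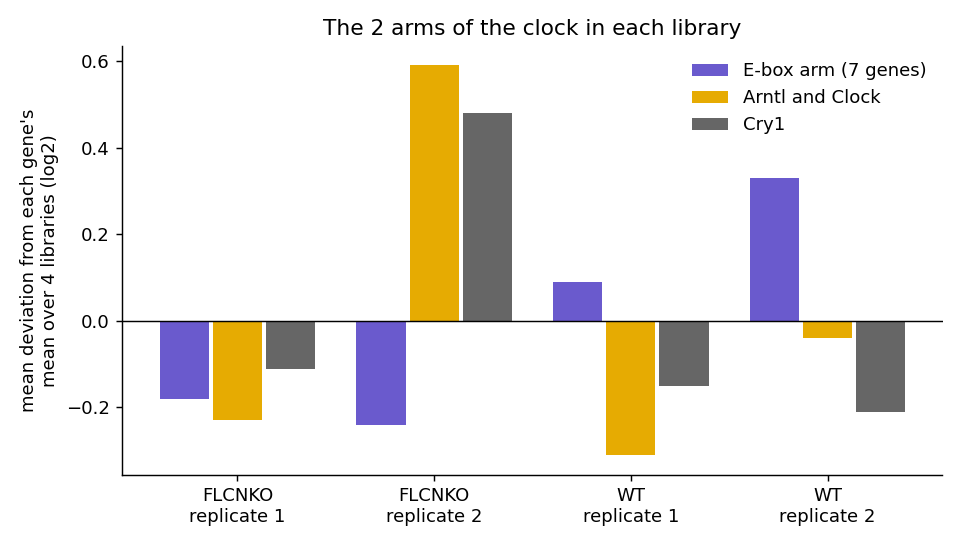
Mean deviation of the E-box arm (7 genes), of Arntl with Clock, and of Cry1 from each gene's mean over the 4 libraries (log2), by library. In FLCNKO replicate 2 the E-box arm is at -0.24 while Arntl with Clock is at 0.59 and Cry1 at 0.48. In both WT libraries the signs are the other way round, though Arntl with Clock is only at -0.04 in WT replicate 2.

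The difference in the contrast between FLCNKO replicates 2 and 1 was -0.89, and between the WT replicates it was -0.03. The contrast does not by itself give a phase, because it averages genes that peak at different hours. Members of an arm did not move together. In FLCNKO replicate 2 the E-box genes Per1, Per2 and Cry2 were higher, and Nr1d1, Nr1d2 and Dbp lower, than in FLCNKO replicate 1. In WT replicate 2 both arms were higher than in WT replicate 1, which leaves the contrast even while single genes differed by up to 0.56. With a single unrecorded hour per library, a shift of phase, a change of amplitude and a different hour of collection cannot be told apart. Skeletal muscle has a clock of its own. The median of its markers was lowest in FLCNKO replicate 2, at 5.32, against 12.33 in FLCNKO replicate 1. In WT replicates 1 and 2 it was 13.18 and 10.55. The part of muscle in the result was not tested.

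Accessory clock factors, the genes that adjust the core loop, held 13 measured members of 14, with a median log2 fold change of -0.17. Limma called 0 of the 13 (1 at an unadjusted p under 0.05), where it called 1.59% of all genes (22.4% unadjusted). Nono (-0.18 ± 0.10) and Sfpq (-0.18 ± 0.13), RNA-binding partners of the Period proteins, did not pass, with limma adjusted p = 0.366 and 0.485. In the list of PAR bZIP and clock output genes, 1 of 16 rose and 0 fell, where 0.98% of all genes rose and 0.614% fell. At an unadjusted p under 0.05 limma gave 3 higher and 2 lower, against 12.1% and 10.3% of all genes, and the median of the list was -0.10. The gene that rose was Ppara, a nuclear receptor of fatty acid burning under clock control, with 12.97 and 12.76 in FLCNKO and 9.65 and 9.88 in WT (log2 fold change 3.10 ± 0.15, limma adjusted p = 0.0336). The Ppara call was lost without any 1 library, with adjusted p-values of 0.192 with WT replicate 2 left out, 0.136 with WT replicate 1 left out, 0.103 with FLCNKO replicate 1 left out and 0.0615 with FLCNKO replicate 2 left out; it was lost, too, when limma ran with no mean-variance trend (adjusted p = 0.14), while its log2 fold change lay between 2.99 and 3.21. Of the 6 brown and beige adipocyte markers limma called 1 higher, Cox8b (adjusted p = 0.0336), against 0.98% of all genes. At an unadjusted p under 0.05 limma gave 4 of these markers as higher, against 12.1% of all genes. Their summed level was higher in each FLCNKO library than in either WT library, although Ucp1 and Dio2 overlapped between the groups. The part of these cells in the Ppara result was not tested.

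The kinases, phosphatases and ubiquitin ligases that set the stability of clock proteins were nearly even between the groups. Of 22 measured genes limma called 0 (1 at an unadjusted p under 0.05), where it called 1.59% of all genes (22.4% unadjusted). The log2 fold changes ran from -0.39 to 0.51 with a median of 0.03. Neither of the genes named here passed. Prkaa2, a catalytic subunit of AMPK, which marks Cry1 for destruction, had a log2 fold change of 0.51 ± 0.17 (limma adjusted p = 0.171), and the phosphatase gene Ppp1cb had 0.26 ± 0.14 (adjusted p = 0.342).

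Hormone and temperature signals reach the clock through Per1 and Per2. Of 9 glucocorticoid response genes, Per1 among them, limma called 0 (5 at an unadjusted p under 0.05, all lower, where 10.3% of all genes were), with a median log2 fold change of -0.63 and 8 below 0. Fkbp5, a steroid receptor chaperone induced by glucocorticoids, was 13.81 and 14.55 in FLCNKO, against 15.17 and 15.45 in WT (-1.13 ± 0.27, limma adjusted p = 0.0987). Zbtb16, another gene induced by glucocorticoids, was 13.44 and 13.90 in FLCNKO and 14.29 and 14.38 in WT (-0.66 ± 0.18, adjusted p = 0.116). FLCNKO replicate 1 was the lowest library for Fkbp5, Zbtb16 and Per1, whereas FLCNKO replicate 2 was the lowest for Dusp1 and Errfi1, the other members at an unadjusted p under 0.05 (named after their values were seen). Of 10 temperature response genes limma also called 0 (3 at an unadjusted p under 0.05), with a median of 0.38. Over all genes limma called 1.59%, and 22.4% had an unadjusted p under 0.05. Cirbp, the cold-inducible RNA-binding protein that acts on Clock transcripts, was 11.16 and 10.92 in FLCNKO and 11.69 and 11.72 in WT (-0.66 ± 0.13, limma adjusted p = 0.073). The heat shock genes Hsp90aa1 and Hsph1 had differences of 0.63 ± 0.14 and 0.78 ± 0.28, with limma adjusted p-values of 0.0881 and 0.193, and that of Hsph1 lay between 0.40 (WT replicate 2 left out) and 1.15 (WT replicate 1 left out).

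**Figure D5:**
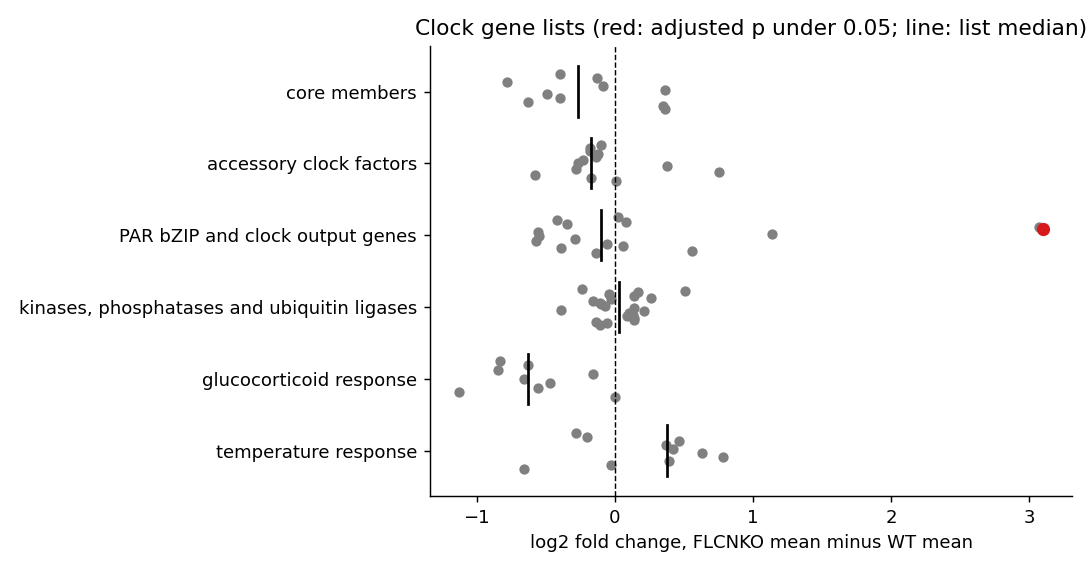
Log2 fold change (FLCNKO mean minus WT mean) of every measured gene of the core clock set and of 5 related lists, with a line at each list's median. Ppara, at 3.10, is the 1 gene with an adjusted p under 0.05.

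The genes whose profile over the 4 libraries lay nearest to that of Dbp, after each gene's mean was subtracted, were Rsl1, Prx, Mir22hg, Acat3 and Trib1, with root-mean-square differences between 0.059 and 0.096 on the log2 scale. For Arntl they were Pitpnm3, Adcyap1r1, Rgsl1, Dchs1 and Rbm28, at 0.082 to 0.124. None of the 10 is a core clock gene, and with 11311 genes searched over 4 libraries such nearness is a description only.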

How the data were processed

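Each library came with 1 table of log2 expression values per Ensembl gene, which the authors had normalized before they were deposited. Per the submitters' processing notes, mm9 was the genome build and STAR and limma were among the tools; which program counted reads, with which annotation and strand setting, is not given in the sources used here. Values had nearly the same distribution in the 4 libraries, so that changes common to the bulk of genes are hidden. Symbols matched for 13592 of 13677 genes. The test was limma (version 3.58.1, under R 4.3.3; group as the only term, variances moderated with a trend on mean expression, two-sided, Benjamini-Hochberg adjustment over all genes). Residual degrees of freedom were 2 and prior degrees of freedom 3.09. The fit was checked on simulated data. A log2 fold change is the FLCNKO mean minus the WT mean. Members, lists and tests were chosen with earlier results of these data known. The text names all members, Flcn, every called gene of a list or else the 3 with the smallest p, and the 5 nearest profiles of Dbp and Arntl among genes with a mean of at least 8. Some genes named by this rule are not reported here. Alternatives were a filter, other normalizations, other variance moderation, a replicate block and leaving out each library. Figures were drawn with matplotlib 3.10.9.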

Additional observations from a re-analysis of the deposited data

How the results depend on the processing

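The number of called genes, 218, was 0 without the mean-variance trend (2702 at an unadjusted p under 0.05) and 0 when any 1 library was left out (1395 to 3455 at an unadjusted p under 0.05 by limma). It was 344 with robust estimation of the prior, and 325 when genes with a mean under 8 were removed, Arntl among them. The count of core clock genes called stayed at 0 under every one of these settings. Leaving out a library assumes that the lone library left in a group varies like the other group. Directions that turned were Arntl without FLCNKO replicate 2 (range with 1 library left out from -0.26 to 0.99), Nr1d2 without FLCNKO replicate 2 (-0.50 to 0.25), Cry2 without FLCNKO replicate 1 or WT replicate 2 (-0.42 to 0.23, with 0.11 for WT replicate 2), and Flcn without FLCNKO replicate 2 or WT replicate 1 (-0.17 to 0.06, with 0.02 for WT replicate 1). The cause was not tested. The arm contrast lay between -1.22 and -0.33 with 1 library left out, and was -0.77 with quantile normalization repeated or with median centring. Added after the data were seen, it was -0.77 without the members that share at least 1% of their exon bases with another gene and -0.74 without Per1. The replicate numbers are a shared number only, with no label that pairs the libraries, and the gaps between replicates 2 and 1 in the groups had a correlation across genes of 0.363. With the replicate number as a block limma called 842 genes, 401 higher and 441 lower, and again 0 core clock genes, with Per1 at an adjusted p of 0.0546. Fkbp5 passed under the block (adjusted p = 0.0334). With 2 libraries per group and depth unknown, small shifts of single clock genes are not resolvable.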

Other observations

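The 3 PAR bZIP factors, relatives that bind the same D-box, differed in sign, and they are set side by side here after their values were seen. Hlf was 12.51 and 12.07 in FLCNKO and 11.67 and 11.80 in WT (log2 fold change 0.56 ± 0.18, limma adjusted p = 0.158). Tef was 14.72 and 14.75 in FLCNKO and 14.72 and 15.03 in WT (-0.14 ± 0.14, limma adjusted p = 0.609). Dbp had a difference of -0.40 ± 0.27, so none of the 3 passed. In the same list Pdk4, a kinase gene that spares glucose, was 18.17 and 16.60 in FLCNKO and 15.03 and 13.60 in WT, a log2 fold change of 3.07 ± 0.67 that did not pass (limma adjusted p = 0.0877), and it too is named after its values were seen.

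Further E-box genes of the accessory list varied between the WT libraries, and were also chosen after their values were seen. Bhlhe40, a repressor of the core activators, was 11.53 and 11.46 in FLCNKO and 10.86 and 12.68 in WT. Ciart, another repressor, was 9.55 and 9.21 in FLCNKO and 9.14 and 10.16 in WT. WT replicate 2 was the highest library for each, as it was for Nr1d1 and Dbp. Bhlhe41, the paralog of Bhlhe40, was 10.31 and 11.00 in FLCNKO and 9.69 and 10.86 in WT, with FLCNKO replicate 2 the highest. The limma adjusted p-values of the group difference were 0.82 for Bhlhe40, 0.715 for Ciart and 0.669 for Bhlhe41.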
